A study of Mus musculus with 9 samples.

Results

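Of 9 arrays of mouse striatal RNA, 3 carried far higher levels of Slc17a7, the gene for a vesicular glutamate transporter of cortical neurons, than the other 6. These 3 arrays, control 1, acute 1 and acute 2, were chosen by 1 measured value, a log2 level of Slc17a7 of at least 11 on the brightest probe set of that gene. They are called the Slc17a7-high arrays here and are compared with the other 6 as 2 kinds of tissue content, not as treatments. Slc17a7 lay at 11.75 on acute 1, the array just inside the threshold, and at 9.66 on chronic 1, the array just outside it. Because measured values made the split, every difference between the 3 and the 6 arrays is a description and carries no test.

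The arrays came from a study of MPTP, a compound whose metabolite damages dopamine neurons. Control mice were injected with saline 4 times at intervals of 2 h and sampled after 1 week. Acute mice were given 20 mg/kg MPTP on the same schedule and sampled after 1 week, and chronic mice were given 4 mg/kg daily over 20 days and sampled after 8 weeks, so that both regimens came to 80 mg/kg. Each group had 3 arrays, every group is labelled as striatum, and the strain, sex and age of the mice are not given in the sources used here. The labels do not tie an array to a separate animal, so the p-values below measure the spread between these samples, which may be technical. The Slc17a7-high arrays were 1 of 3 controls, 2 of 3 acute arrays and 0 of 3 chronic arrays, so the split and the treatments overlap in part.

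The striatum lies beneath the cerebral cortex and the white matter, beside the claustrum, the septum and the lateral ventricle, and in front of the thalamus. Its projection neurons release GABA and carry dopamine receptors, whereas cortical projection neurons release glutamate and make transcription factors such as Tbr1 and Neurod6, which striatal projection neurons lack. A piece of dissected striatum can therefore hold RNA of its neighbours, and the genes of each neighbour are known well enough to be listed. In RNA from whole tissue, fewer cells of a type and less RNA per cell cannot be told apart.

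Slc17a7 was at 12.27, 11.75 and 12.28 on control 1, acute 1 and acute 2, and at 9.49, 8.72, 8.84, 9.66, 9.60 and 8.14 on control 2, control 3, acute 3 and chronic 1 to 3. The means were 12.10 ± 0.31 (SD, n = 3) and 9.08 ± 0.61 (SD, n = 6), an 8.13-fold difference. Tbr1, a T-box transcription factor of cortical glutamatergic neurons, was at 9.89, 9.12 and 9.65 on the Slc17a7-high arrays and at 7.06, 7.08, 6.47, 7.27, 7.04 and 5.69 on the others in the same order. Neurod6, a basic helix-loop-helix factor of the same neurons, was at 8.45, 7.60 and 7.83 against 5.78, 5.13, 4.95, 5.78, 5.78 and 5.33. All 3 genes were well apart between the sets of arrays, by 2.79 ± 0.33 (SE) log2 units for Tbr1 and 2.5 ± 0.29 for Neurod6, and in each gene chronic 3 or acute 3 was the lowest array. The mean of Neurod6 over the other 6 arrays, 5.46, was below the filter of 5.89 used here, so that this gene entered only through the Slc17a7-high arrays.

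**Figure D1:**
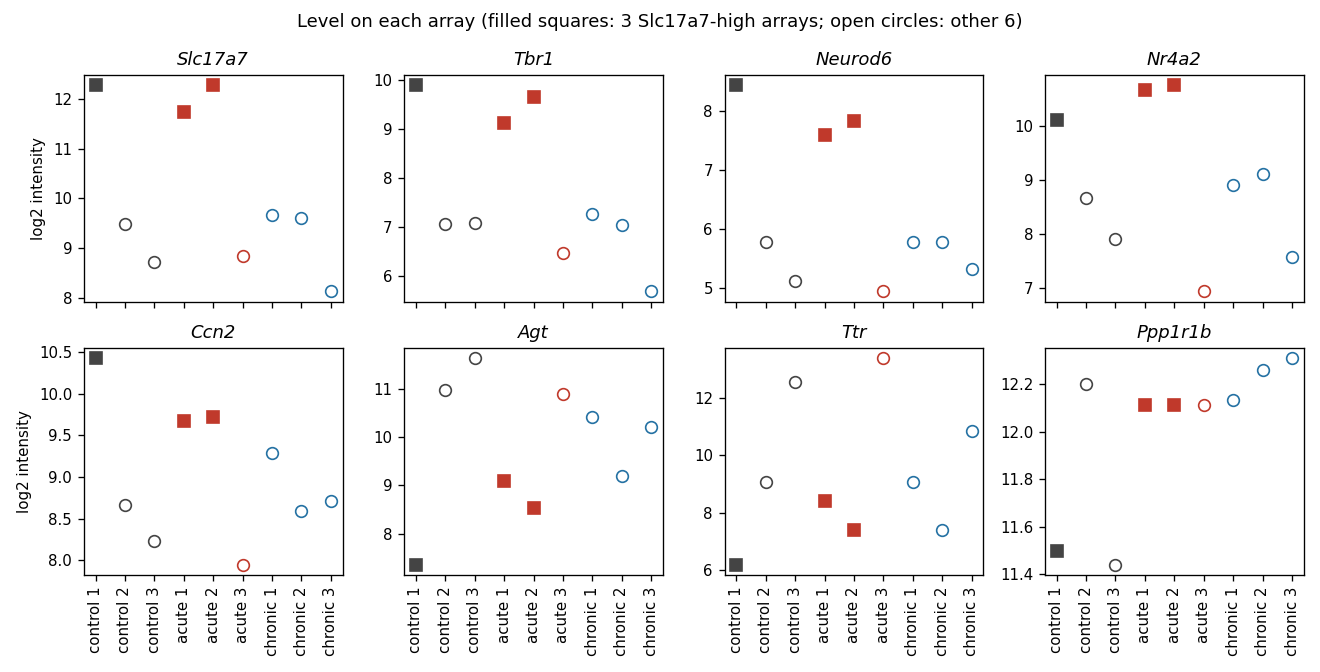
Log2 intensity of Slc17a7, Tbr1, Neurod6, Nr4a2, Ccn2, Agt, Ttr and Ppp1r1b on each of the 9 arrays. Filled squares are the 3 Slc17a7-high arrays, open circles the other 6, and colour gives the treatment; Slc17a7 lies between 11.75 and 12.28 on the filled squares and between 8.14 and 9.66 on the circles, while Ppp1r1b lies between 11.44 and 12.31 on all arrays.

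The labelled tissue was checked against striatal genes on the same arrays. Ppp1r1b, which encodes the dopamine-regulated phosphatase inhibitor DARPP-32, was at 11.50, 12.11 and 12.11 on the Slc17a7-high arrays and at 12.20, 11.44, 12.11, 12.13, 12.26 and 12.31 on the others. Drd2, a dopamine receptor of the indirect pathway, was at 10.88, 11.53 and 11.40, and at 10.97 to 12.01 with a median of 11.61 on the others. Both genes overlapped between the sets and lay above a log2 level of 10 on all 9 arrays, while over the whole striatal list 35 of 36 genes had a lower mean on the Slc17a7-high arrays (median -0.26).

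Across 16335 probe sets of 14880 genes, 42 genes were at least 2-fold higher on the Slc17a7-high arrays without overlap, 0.257% of the probe sets tested, and 5 were at least 2-fold lower, 0.0306%. Without a bound on the fold, 842 probe sets (5.15%) were higher and 540 (3.31%) lower without overlap, and the median difference over all probe sets was -0.00376. The balance turned in other settings, with 1803 higher and 1902 lower without the 3 chronic arrays, 1609 and 1646 without acute 2, and 2695 and 2930 when control 1 was set against the other controls and acute 1 and 2 against acute 3. At 1.5-fold the counts were 105 higher (0.643%) and 51 lower (0.312%). The genes nearest the 2-fold bound were Cnih3 at 1.00105 inside and Sla at 0.997 outside, and on the lower side Ret at -1.09 inside and Gstm6 at -0.89 outside. Of the 42 higher genes, 2 (Neurod6 and Chrna5) had a mean below the filter on the other 6 arrays, so their passing rested on the high arrays. The count of 42 ranged from 32 to 57 when 1 array was left out, and 31 to 42 of the same genes were kept. The count of 5 was 24 without acute 2, 16 without chronic 1, 9 without control 1 and 9 without chronic 2, and it was 1 without control 3 and acute 3 together. At 2-fold, 40 genes were higher and 53 lower without the 3 chronic arrays, and 45 higher and 57 lower within the treatments, so the excess of higher genes over lower ones held only with the chronic arrays among the others.

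The balance of small differences also moved with the filter on weak probe sets. Among the 5445 probe sets below the filter, 318 were higher and 20 lower on the Slc17a7-high arrays without overlap. The lower quartile of the deposited values was 5.65 to 5.67 on the Slc17a7-high arrays and 5.57 to 5.65 on the others. With the filter raised to the median, 369 probe sets were higher and 437 lower, and without a filter after quantile normalization 869 and 772. At 2-fold these settings gave 31 to 48 higher and 4 to 6 lower genes.

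Transcription factors of cortical neurons were among the genes furthest apart. Beside Tbr1 and Neurod6 these were Fezf2, Neurod2, Nr4a2 and Prdm8. Fezf2, which directs neurons of layer 5 that project below the cortex, was at 9.50, 8.57 and 9.19 on control 1, acute 1 and acute 2 against 7.15 to 7.97 with a median of 7.33 on the others, a difference of 1.66 ± 0.30 (SE). Neurod2, a relative of Neurod6, was at 8.92, 8.40 and 8.56 against 7.0 to 7.65, a difference of 1.36 ± 0.19. In both genes control 1 was highest and the sets were separate. Prdm8, a transcriptional repressor, was 2.16-fold higher.

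Nr4a2, an orphan nuclear receptor made in the claustrum, the deepest cortical layer and dopamine neurons, had its own order of arrays. It was at 10.11 on control 1, 10.68 on acute 1 and 10.76 on acute 2, and at 8.66, 7.90, 6.94, 8.91, 9.11 and 7.57 on control 2, control 3, acute 3 and chronic 1 to 3. The difference was 2.33 ± 0.40, a 5.04-fold difference. Here control 1 was the lowest of the Slc17a7-high arrays, whereas it was the highest in 31 of the 42 genes. Acute 3 was the lowest of all, 3.78 below the mean of the 2 other acute arrays, against 1.83 between control 1 and the other controls.

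Several of the 42 encode secreted proteins or receptors. Cck, the precursor of the neuropeptide cholecystokinin, was at 10.80, 10.57 and 11.01 against 9.35, 9.77, 9.36, 9.13, 8.46 and 8.77, a difference of 1.65 ± 0.23. Its brain receptor Cckbr was at 9.58, 8.90 and 9.56 against 7.98 to 8.53, so peptide and receptor were both higher on all 3 arrays than on any other. Ccn3, a matricellular protein, was 5.62-fold higher, with levels of 10.02, 9.17 and 9.38 against 6.54 to 7.41. Prss12, the extracellular protease neurotrypsin that cleaves agrin, was 3.45-fold higher, and Dkkl1, a secreted relative of the dickkopf proteins, 3.54-fold higher. Scube1, a secreted protein with EGF-like and CUB domains, was 2.80-fold higher with the narrowest spread of these on the other 6 arrays, 6.53 to 6.94.

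Among synaptic organisers, Nptx1, a pentraxin that gathers AMPA receptors, was at 10.86, 10.49 and 11.10 against 8.59 to 9.65, a difference of 1.75 ± 0.23. C1ql3, a C1q-like synaptic protein, was at 10.03, 9.61 and 9.31 against 7.79, 9.05, 8.58, 7.55, 7.22 and 7.74. Nrn1, the membrane-anchored growth factor neuritin, was at 9.86, 9.49 and 9.47 against 7.57, 9.34, 8.54, 7.65, 7.22 and 7.65. In C1ql3 and Nrn1 control 3 and acute 3 came close to the Slc17a7-high arrays, and in Nrn1 only 0.13 of a log2 unit separated control 3 from acute 2. Slc30a3, the zinc transporter that fills glutamatergic vesicles of the cortex, was at 9.17, 8.74 and 9.26 against 7.04 to 7.92, well apart.

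The remaining genes had mixed roles. Vxn, which encodes the neuronal differentiation factor vexin, was 6.36-fold higher, at 11.37, 10.79 and 10.68 against 7.45 to 9.25. Myl4, a myosin light chain best known from atrial muscle and a marker of cortical layer 5, was 3.60-fold higher, B3galt2, a galactosyltransferase, 2.74-fold higher and Hs3st2, which sulfates heparan sulfate chains, 2.58-fold higher. Tmem178, a transmembrane protein, was 2.87-fold higher. Serpini1, the axonal protease inhibitor neuroserpin, was 2.05-fold higher, with control 1 at 10.66 and acute 1 and 2 at 9.70 and 9.61. Chrna5, a nicotinic receptor subunit, was 2.12-fold higher, with control 1 at 7.36 and the others of the 3 at 6.52 and 6.73. In these 2 genes the lead of control 1 over the acute arrays was larger than the gap between acute arrays.

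**Figure D2:**
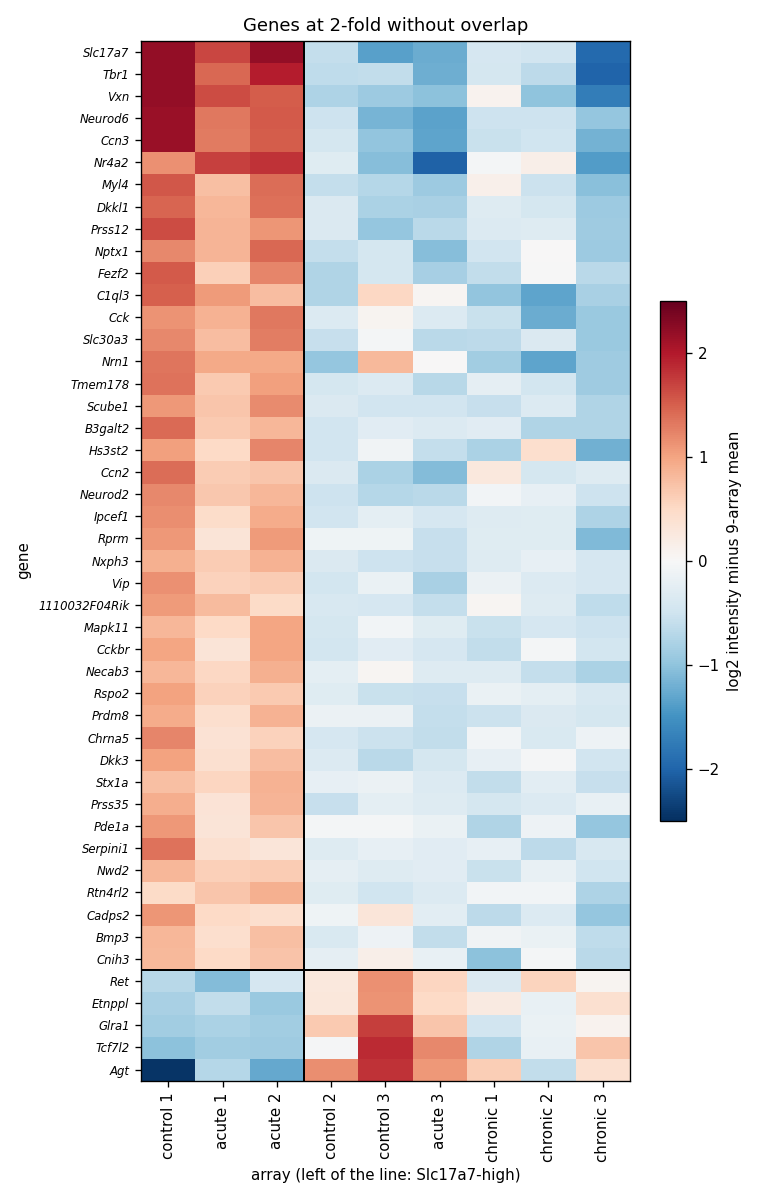
Log2 intensity minus the 9-array mean for the 42 genes at least 2-fold higher and the 5 at least 2-fold lower without overlap, with arrays in columns and the Slc17a7-high arrays left of the line. Colour runs from low to high; control 1 has the highest level in 31 of the 42 genes and acute 1 in 0.

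The start regions of these genes are shown because the 42 genes were high on the same arrays and hold 2 Neurod factors and a T-box factor among them. RefSeq start regions of 300 bases, 250 before the start and 50 after it in assembly GRCm38.p6, were found for 32 of the 42 genes. Both strands were searched for CAGATG, an E-box of the kind bound by Neurod factors, for GGTGTGA, the core of a T-box site, and for TGACGTCA, the cyclic AMP response element; none of these motifs contains another. The transporter gene that defines the split and 4 other higher genes are given 5' to 3' on the gene's own strand, with motif matches in capitals. The 4 were picked as the higher members of the cortical glutamatergic list below whose window held the E-box or T-box letters. Their matches are therefore fixed by the choice and are not typical of the 42.
Slc17a7, chr7:45163671-45163970, plus strand: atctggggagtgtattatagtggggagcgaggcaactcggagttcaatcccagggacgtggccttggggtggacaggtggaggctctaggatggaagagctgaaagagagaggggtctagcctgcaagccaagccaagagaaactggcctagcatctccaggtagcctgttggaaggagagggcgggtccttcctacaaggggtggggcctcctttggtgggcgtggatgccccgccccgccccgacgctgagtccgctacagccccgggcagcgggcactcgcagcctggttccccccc
Neurod2, chr11:98329596-98329895, minus strand: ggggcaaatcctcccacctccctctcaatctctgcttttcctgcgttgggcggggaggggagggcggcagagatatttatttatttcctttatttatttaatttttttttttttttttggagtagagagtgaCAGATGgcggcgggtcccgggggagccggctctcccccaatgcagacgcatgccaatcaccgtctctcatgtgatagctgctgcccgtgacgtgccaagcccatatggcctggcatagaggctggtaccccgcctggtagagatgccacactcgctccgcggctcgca
Cck, chr9:121495645-121495944, minus strand: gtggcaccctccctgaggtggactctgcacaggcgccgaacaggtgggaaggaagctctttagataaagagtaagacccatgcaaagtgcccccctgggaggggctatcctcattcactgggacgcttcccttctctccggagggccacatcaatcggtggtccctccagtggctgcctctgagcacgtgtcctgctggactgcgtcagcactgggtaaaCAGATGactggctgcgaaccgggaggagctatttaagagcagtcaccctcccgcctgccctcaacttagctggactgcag
Dkkl1, chr7:45211834-45212133, minus strand: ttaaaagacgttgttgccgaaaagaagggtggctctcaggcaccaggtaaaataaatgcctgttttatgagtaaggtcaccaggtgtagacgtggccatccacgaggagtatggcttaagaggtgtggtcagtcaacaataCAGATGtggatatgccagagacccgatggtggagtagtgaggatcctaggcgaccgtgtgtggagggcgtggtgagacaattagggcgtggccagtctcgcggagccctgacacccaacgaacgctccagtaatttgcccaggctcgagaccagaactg
Slc30a3, chr5:31093478-31093777, minus strand: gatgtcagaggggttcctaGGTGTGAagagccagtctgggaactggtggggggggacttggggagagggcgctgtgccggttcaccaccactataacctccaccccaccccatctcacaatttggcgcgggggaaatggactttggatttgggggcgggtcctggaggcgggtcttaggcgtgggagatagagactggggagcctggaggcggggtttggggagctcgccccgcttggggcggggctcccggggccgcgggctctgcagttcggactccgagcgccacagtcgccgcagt
The window of Slc17a7 held none of the 3 motifs, and that says only that these letters are not in it. The E-box began at -118 from the start in Neurod2, at -30 in Cck and at -109 in Dkkl1, and the T-box core at -231 in Slc30a3. CAGATG was in a window of 8 of the 32 genes (25%), against 19.2% of 26742 genes and 17.1% of 32544 windows of this length. GGTGTGA was in 3 (9.38%) against 4.58% of genes, and TGACGTCA in 1 (3.12%) against 2.05%. Of the 5 lower genes described below 3 were found, and 2 of them held CAGATG, a larger share than among the higher genes. These shares are descriptions of letters and not of binding.

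Genes of cortical glutamatergic neurons as a class were higher, and not those which the rule used alone. Of 19 tested members of that list, 14 were higher without overlap, where 5.15% of all probe sets tested were, 9 of them by at least 2-fold, and 18 had a higher mean, against 49.1% of all. Their median difference was 0.78, and their mean level was 9.14 to 9.45 on the Slc17a7-high arrays and 7.99 to 8.38 on the others. Slc17a7, Tbr1 and Neurod6 are among the 14. The members with the smallest differences were Chrm1 and Kcnh3. Chrm1, a muscarinic receptor, was at 9.68 ± 0.15 (SD, n = 3) against 9.64 ± 0.37 (SD, n = 6), and Kcnh3, a potassium channel, at 10.01 ± 0.27 against 9.85 ± 0.45. The list and the members were chosen with earlier results in view, so the counts describe these arrays and are no independent evidence.

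The cortical layers did not go together. Of 15 upper-layer genes (layers 2 to 4), 0 were higher without overlap and 1, Rspo1, was lower (-0.73), with a median difference of -0.12 that was 0.00 without control 1. These counts are near the shares of all probe sets tested, of which 5.15% were higher and 3.31% lower without overlap. Lhx2, a transcription factor of upper layers, was at 9.45 ± 0.18 against 9.39 ± 0.38. Of 15 layer 5 genes, 4 were higher without overlap, Fezf2, Hs3st2 and Myl4 by over 2-fold and Rbp4, a retinol carrier, by 0.33, while the median was -0.04 and 7 had a higher mean. Crym, a thyroid hormone binding protein also strong in striatum, was at 11.10 ± 0.27 against 11.14 ± 0.26. On these lists the higher genes were thus those of cortical glutamatergic neurons in general and some deep-layer genes, and not the upper-layer genes. The lists were chosen with earlier results in view, so this describes the arrays, and their cortical content was not tested.

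Layer 6 and subplate genes were partly higher. Of 16 tested, 7 were higher without overlap, where 5.15% of all probe sets were, and 0 lower, and the median difference was 0.28. Ccn2, connective tissue growth factor and a marker of the deepest layer, was at 10.43, 9.67 and 9.72 against 8.67, 8.23, 7.95, 9.28, 8.59 and 8.71. The sets were separate in Ccn2, with chronic 1 nearest to them. Rprm, a cell cycle inhibitor found in layer 6, was 2.35-fold higher, Sla, a Src-like adaptor, 2.00-fold higher, and Garnl3, Cplx3 and Nxph4 by 0.60, 0.47 and 0.28. Tle4, a corepressor of layer 6 that is also made in striatum, was at 10.14 ± 0.08 against 10.24 ± 0.19. Of 7 claustrum and endopiriform genes, 2 were higher without overlap, Nr4a2 and, by 0.39 ± 0.14, the synaptic vesicle protein Synpr. The median of that list, 0.31, was -0.01 without the 3 chronic arrays.

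Nxph3, the neurexophilin in the title of the series, belonged to the deep-layer group. Neurexophilins are secreted proteins that bind alpha-neurexins at synapses. Nxph3 was at 8.08, 7.83 and 8.06 on control 1, acute 1 and acute 2 and at 6.84, 6.68, 6.63, 6.88, 7.0 and 6.78 on the others, a 2.28-fold difference of 1.19 ± 0.10, with no overlap and the same SD of 0.14 in both sets. Nxph4 was at 7.11 ± 0.15 against 6.82 ± 0.11, also without overlap. Nxph1 was at 8.54 ± 0.14 against 8.84 ± 0.36 and overlapped, and Nxph2 lay below the filter at 5.32 ± 0.07 against 5.28 ± 0.12. Of their binding partners, Nrxn3 was at 11.52 ± 0.02 against 11.57 ± 0.10 and Nrxn2 at 10.80 ± 0.12 against 10.94 ± 0.22.

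Hippocampal genes were not among the higher ones. Of 9 tested, 0 were higher and 1, Prox1, the homeobox gene of dentate granule cells that thalamic neurons and other cells also make, was lower without overlap, at 7.75 ± 0.09 against 8.63 ± 0.55. Dsp, a desmosomal gene of the dentate gyrus, was at 6.25 ± 0.08 against 6.14 ± 0.13. The list's median was -0.19, and 5.15% of all probe sets were higher and 3.31% lower without overlap.

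Interneuron genes overlapped for the most part. Of 19 tested, 2 were higher and 2 lower without overlap, 14 had a lower mean, and the median was -0.22. The shares of all probe sets were 5.15% higher and 3.31% lower without overlap, and 49.1% with a higher mean. Vip, the peptide of a class of cortical interneurons, was at 7.47, 6.90 and 6.96 against 5.87, 6.16, 5.52, 6.19, 5.99 and 5.92, a 2.25-fold difference. Cort, the peptide cortistatin, was higher by 0.19. The GABA-synthesising enzymes Gad1 and Gad2 were lower, Gad1 at 11.51 ± 0.14 against 11.72 ± 0.03 and Gad2 at 11.35 ± 0.17 against 11.76 ± 0.15. Sst, the peptide somatostatin, was at 11.40 ± 0.19 against 11.40 ± 0.27.

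Genes of striatal projection neurons were lower by small amounts. Of 36 tested, 1 had a higher mean, against 49.1% of all probe sets, and the median difference was -0.26. However, 0 were higher and only 2 were lower without overlap: Isl1, a transcription factor of the direct pathway, at 7.78 ± 0.28 against 8.24 ± 0.15, and Strip2 at 10.42 ± 0.10 against 10.84 ± 0.18. The 2 lower of 36 are near the 3.31% of all probe sets that were lower without overlap, where 5.15% were higher. The median was -0.31 between control 1 and the other controls and 0.00 between acute 1 and 2 and acute 3, and it was -0.08 without control 1 and -0.05 without the 3 chronic arrays. The list's mean level was lowest on control 1, at 10.12, followed by control 3 at 10.16, and the 7 remaining arrays lay between 10.58 and 10.98. The 2 lowest arrays were thus both controls, 1 in each set.

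Cholinergic genes were also lower in mean. Of 9 tested, 0 were higher and 3 lower without overlap: Ache, which breaks down acetylcholine, at 9.55 ± 0.25 against 10.12 ± 0.20, Ngfr, a neurotrophin receptor, at 7.61 ± 0.20 against 8.16 ± 0.15, and Lhx8, a transcription factor of these cells, at 7.0 ± 0.27 against 7.51 ± 0.18. Of all probe sets tested, 5.15% were higher and 3.31% lower without overlap. The list's median was -0.50, and -0.31 without control 1; it was -0.80 within the controls and -0.23 within the acute group. Its mean level was 7.64, 8.02 and 8.08 on the Slc17a7-high arrays and 8.28 to 8.44 on the others, so the sets did not overlap.

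The 5 genes at least 2-fold lower were Agt, Tcf7l2, Glra1, Etnppl and Ret. Agt, the angiotensin precursor made by astrocytes outside the cortex, was at 7.37 on control 1, 9.09 on acute 1 and 8.54 on acute 2, and at 10.98, 11.63, 10.90, 10.42, 9.19 and 10.22 on the others, a 4.67-fold difference. The sets were only just separate, with acute 1 at 9.09 and chronic 2 at 9.19. Tcf7l2, a Wnt effector strong in thalamus, was at 7.59, 7.73 and 7.71 against 8.57, 10.46, 9.80, 7.86, 8.42 and 9.30, and Glra1, a glycine receptor subunit, at 5.99, 6.06 and 5.97 against 7.51, 8.58, 7.55, 6.37, 6.68 and 6.94. The Slc17a7-high arrays held almost 1 level of both genes, while the others spread over more than 2 log2 units with control 3 at the top. Etnppl, an astrocyte enzyme of phosphoethanolamine breakdown, was 2.26-fold lower and Ret, the GDNF family receptor kinase, 2.13-fold lower. Control 3 had the highest level of all 5 genes.

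Genes of the thalamus, septum and hypothalamus were lower on average but overlapped. Of 21 tested, 0 were higher and 1, Tcf7l2, was lower without overlap, 2 had a higher mean and the median was -0.61. The 1 lower of 21 is near the 3.31% of all probe sets that were lower without overlap, where 5.15% were higher. A higher mean was found in 49.1% of all probe sets. The median was -0.31 without control 3 and -0.22 without control 3 and acute 3. Slc17a6, the glutamate transporter of those regions, was at 7.19, 6.68 and 6.54 on the Slc17a7-high arrays and at 7.66, 10.59, 9.43, 6.45, 6.42 and 8.51 on the others, so chronic 1 and 2 lay below all 3. Calb2, the calcium buffer calretinin, was at 7.98, 7.05 and 8.01 against 7.84 to 11.42. Tac2, the neurokinin B precursor and a member of the interneuron list, was at 7.13, 6.85 and 7.78 against 7.26 to 10.20, and both genes overlapped between the sets.

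Choroid plexus genes ranged widely across the arrays. Ttr, the transthyretin that this tissue secretes, was at 6.19, 8.41 and 7.38 on the Slc17a7-high arrays and at 9.07, 12.56, 13.37, 9.07, 7.38 and 10.85 on the others, and the sets overlapped. Of 14 tested, 0 were higher and 2 lower without overlap, Clic6, a chloride channel protein, by -0.71 and Slc4a5, a bicarbonate transporter, by -0.64. Among all probe sets tested 5.15% were higher and 3.31% lower without overlap. The list's median was -0.62, but -0.41 without acute 3 and -0.30 without control 3 and acute 3. None of the Slc17a7-high arrays was among the 2 arrays with high Ttr.

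**Figure D3:**
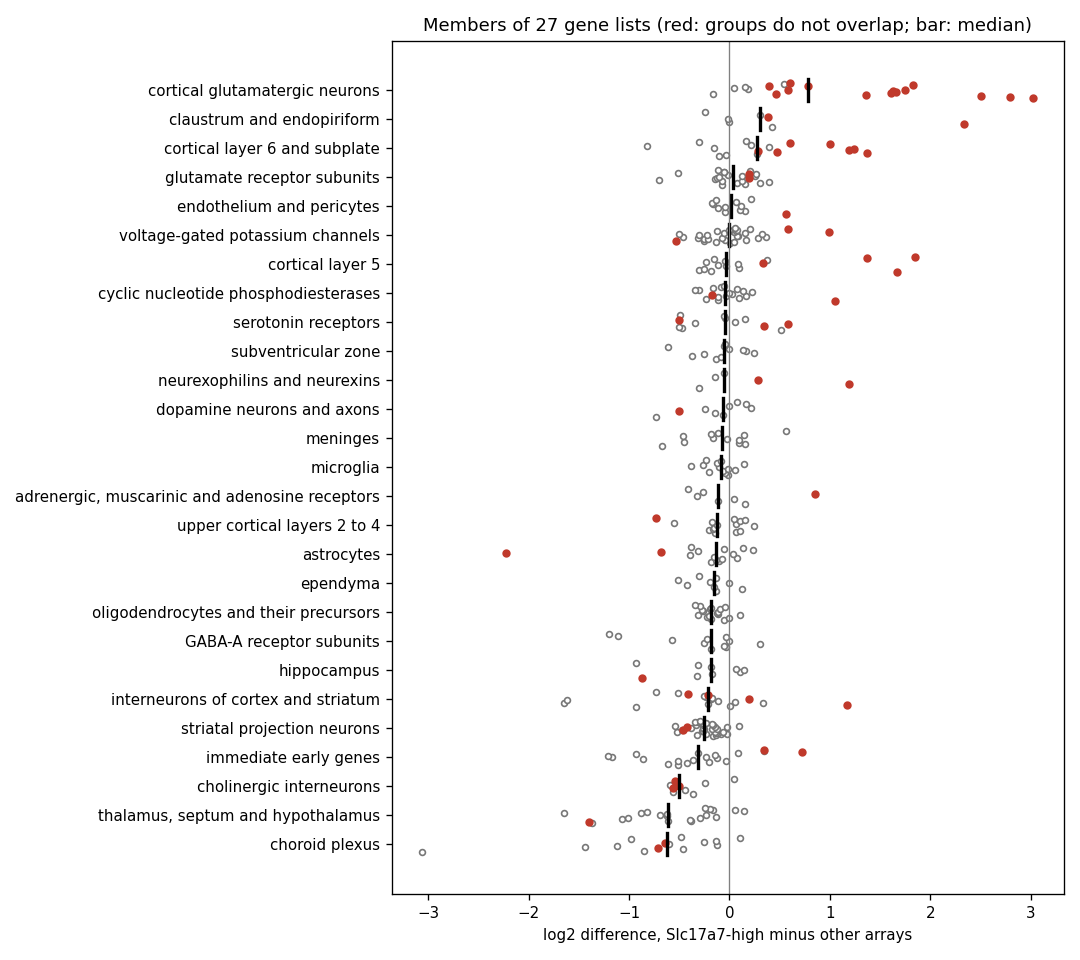
Differences in mean log2 intensity, Slc17a7-high minus the other arrays, for the tested members of 27 gene lists, 1 row a list and 1 point a gene. Red points are genes whose 2 sets of arrays do not overlap and the bar is the median, which is 0.78 for cortical glutamatergic neurons and -0.62 for choroid plexus.

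Glial, vascular and meningeal genes differed by small amounts for the most part, but most glial genes had a lower mean. For all probe sets the shares were 5.15% higher and 3.31% lower without overlap, and 49.1% with a higher mean. Of 18 oligodendrocyte genes 0 were without overlap, 17 had a lower mean and the median was -0.18. Mbp, the main myelin protein, was at 12.07 ± 0.11 against 12.12 ± 0.09. Of 15 astrocyte genes, 2 were lower without overlap, Agt and the GABA transporter Slc6a11 (11.03 ± 0.11 against 11.71 ± 0.37), while Aldoc, a general astrocyte enzyme, was at 12.97 ± 0.05 against 13.02 ± 0.12 and Gfap at 8.69 ± 0.22 against 8.87 ± 0.37. The astrocyte median was -0.14, with 11 of 15 lower in mean, and it was 0.01 without control 3 and acute 3. Of 13 microglial genes 0 were without overlap, 11 had a lower mean and the median was -0.08. Cx3cr1, the fractalkine receptor, was at 9.16 ± 0.21 against 9.17 ± 0.10. Of 12 endothelial and pericyte genes 1 was higher, the tight junction gene Cldn5, at 9.62, 10.07 and 9.68 against 8.90 to 9.60, and the median was 0.01. Of 12 meningeal genes 0 were without overlap and the median was -0.07. Likewise 0 of 9 ependymal and 0 of 11 subventricular zone genes were without overlap, with medians of -0.15 and -0.06.

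Receptor and channel genes without overlap are given beside the share of all probe sets tested without overlap in either direction, 8.46%. Chrm3, a muscarinic receptor of cortical neurons, was at 9.43, 9.12 and 9.56 against 8.72, 8.72, 8.58, 8.25, 8.31 and 8.50, a 1.81-fold difference, and it was the 1 of 7 adrenergic, muscarinic and adenosine receptors without overlap. Htr2a, the serotonin receptor of deep cortical neurons, was at 10.10 ± 0.24 against 9.51 ± 0.23 and Htr1f at 7.62 ± 0.11 against 7.28 ± 0.09, while Htr4, a receptor strong in striatum, was at 7.47 ± 0.27 against 7.97 ± 0.10; these were 3 of 12 serotonin receptors. On this short list 3 of 12 is above that share, while its median was -0.05, with 5 of 12 higher in mean. Among 32 voltage-gated potassium channels, Kcnh7 (0.99 ± 0.15) and Kcnv1 (0.59 ± 0.14) were higher and Kcna5 (-0.53 ± 0.17) lower, with a median of -0.00168, a count near that share.

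Of 18 phosphodiesterases, Pde1a was 2.07-fold higher and Pde4b was lower by -0.17. Of 22 glutamate receptor subunits, 2 were higher without overlap, Grm3 by 0.20 and Grin3b by 0.19, and the median was 0.03. Grm5, the receptor of projection neurons in both tissues, was at 12.02 ± 0.10 against 12.07 ± 0.11. Of 11 GABA-A receptor subunits 0 were without overlap and the median was -0.18. These counts are read against the 5.15% higher and 3.31% lower of all probe sets.

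Activity-regulated and dopamine genes were examined beside them, again with 5.15% of all probe sets higher and 3.31% lower without overlap. Of 19 immediate early genes, which neurons transcribe after stimulation, 2 were higher without overlap, Ptgs2, the inducible cyclooxygenase of cortical neurons, at 7.87 ± 0.22 against 7.15 ± 0.28, and Bdnf, a neurotrophin made in cortex, at 6.4 ± 0.11 against 6.06 ± 0.11. The median of that list was -0.32, and -0.03 without the 3 chronic arrays, while it was 0.10 within the controls and 0.11 within the acute group. Of 9 genes of dopamine neurons, 1 was lower without overlap, Ddc, the aromatic amino acid decarboxylase, at 6.97 ± 0.06 against 7.48 ± 0.22. Th, the rate-limiting enzyme of dopamine synthesis, was at 7.14, 7.34 and 7.94 on the Slc17a7-high arrays and at 8.51, 8.28, 8.02, 7.48, 8.61 and 8.36 on the others, so acute 2 overlapped with chronic 1. Slc6a3, the dopamine transporter, was at 6.48 ± 0.17 against 6.55 ± 0.16.

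The 3 Slc17a7-high arrays were not equal. Over the 42 higher genes the median level was 9.49 on control 1, 9.28 on acute 2 and 8.90 on acute 1. Control 1 was the highest of the 3 in 31 genes and acute 2 in 11, and acute 1 was the lowest in 34. The range among the 3 arrays was 0.23 to 1.06 with a median of 0.62, against a median difference of 1.31 between the sets. Acute 1 was also apart in genes of newborn neurons: the mean level of the subventricular zone list was 7.30 on acute 1, 8.19 on control 1, 8.15 on acute 2 and 7.69 to 8.30 on the other 6 arrays. Cd24a, a surface protein of those cells, was at 6.37 on acute 1 and between 7.85 and 8.55 on the 8 others, as noticed after its values were seen.

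Among the other 6 arrays the same 42 genes had median levels of 7.57, 7.76 and 7.28 on control 2, control 3 and acute 3 and 7.60, 7.53 and 7.25 on chronic 1 to 3. Chronic 3 was the lowest of the 6 in 18 genes and acute 3 in 11, and control 3 and chronic 1 were each the highest in 14. The gap between these medians and those of the Slc17a7-high arrays was fixed by how the 42 genes were chosen.

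The split could be read within 2 treatments. In the controls it is control 1 against the mean of controls 2 and 3, and in the acute group the mean of acute 1 and 2 against acute 3. The median over the 42 genes was 1.5 within the controls and 1.26 within the acute group, and the difference within the controls was larger in 28 of 42. The markers were at 3.17 and 3.17 for Slc17a7, 2.83 and 2.92 for Tbr1, and 2.99 and 2.77 for Neurod6; the rule put Slc17a7 above 0 on both sides, and the 42 genes were chosen on the same arrays, so these values only describe the sizes. The cholinergic list had medians of -0.80 and -0.23, the thalamic list -0.84 and -0.72 and the choroid plexus list -0.54 and -1.76. Each side rests on 1 array against 2, so these values have no error of their own.

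**Figure D4:**
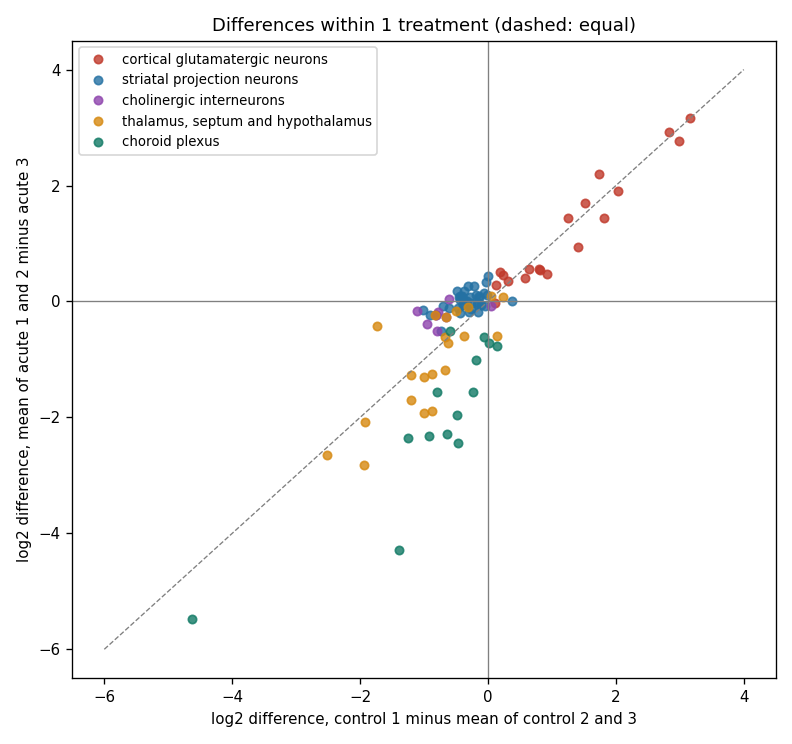
Differences of single genes of 5 lists within the controls (control 1 minus the mean of controls 2 and 3, horizontal axis) and within the acute group (mean of acute 1 and 2 minus acute 3, vertical axis), in log2 units. Points in the upper right are genes higher on the Slc17a7-high arrays in both treatments, among them Slc17a7 at 3.17 on each axis.

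The treatment groups were then compared by their labels, to see how the genes of the split behave between treatments. Over all 16335 probe sets limma called 0 in acute MPTP against control (0%, with 139 at an unadjusted p under 0.05), 0 in chronic MPTP against control (0%, with 900) and 2 in chronic against acute MPTP (0.0122%, with 837). The 2 were immediate early genes, Nr4a1, which rose by 2.38 ± 0.16 (SE, adjusted p = 0.00131 in limma), and Arc, which rose by 1.18 ± 0.12 (adjusted p = 0.0288), and neither is among the 42. With the split of the arrays in the fit Nr4a1 was at 2.37 (adjusted p = 0.024 in limma) and Arc at 1.26 (adjusted p = 0.144). With the replicate number as a block limma again called 2, but they were Nr4a1 (adjusted p = 0.00209) and Tiparp, a poly-ADP-ribose polymerase gene (0.97 ± 0.09, adjusted p = 0.0338), while Arc was no longer called (adjusted p = 0.0619). The count of 2 was 0 without the 3 Slc17a7-high arrays, which leaves 1 acute array, 5 without chronic 1 and 1 without any 1 of control 2, control 3, the 3 acute arrays, chronic 2 and chronic 3.

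Of the 42 higher genes limma called 0 in each of the 3 comparisons, with 0, 7 and 9 at an unadjusted p under 0.05. Their median difference was 0.22 in acute against control, -0.63 in chronic against control and -0.87 in chronic against acute, where the medians of all probe sets were 0.00, -0.01 and -0.01. All 42 were below 0 in both comparisons with the chronic arrays, none of which is in the Slc17a7-high set. In acute against control 37 were above 0. The 42 were chosen as higher on the Slc17a7-high arrays, so these signs and medians were in large part set by the choice. With the split of the arrays as a covariate the medians were -0.30, -0.08 and 0.18. Without the 3 Slc17a7-high arrays they were -0.18, -0.04 and 0.15. These moves follow in part from the same choice, and nothing about treatment is read from them. The 3 comparisons share samples, so they are not independent of each other.

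Slc17a7 differed by 0.79 ± 1.06 (SE) in acute against control, by -1.03 ± 1.06 in chronic against control and by -1.82 ± 1.06 in chronic against acute, with adjusted p from 0.877 to 1.00 in limma. With the replicate number as a block the SE was 0.59 and the adjusted p ran from 0.282 to 0.980 in limma. The split is Slc17a7 itself divided at log2 11, so a fit with the split as a covariate takes out most of its difference by construction, and nothing is read from the result: -0.26 ± 0.42, 0.03 ± 0.42 and 0.29 ± 0.49. Without control 1 alone the chronic against control difference was 0.03. Tbr1 was at 0.40, -1.34 and -1.75 and Neurod6 at 0.34, -0.82 and -1.17, and with the covariate at -0.55, -0.39 and 0.17 and at -0.62, 0.14 and 0.75, genes that were also named with the split in view. In acute against control Tbr1 was -0.07, -0.06 and -0.21 without control 2, control 3 and acute 2, and Neurod6 was -0.32, -0.06 and -0.18 without control 3, acute 1 and acute 2.

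With all arrays, with the covariate and without the 3 Slc17a7-high arrays, 5 of the 42 were below 0 and 1 above in acute against control (27.1% and 30.1% of all probe sets), 23 below in chronic against control (43.7%) and 12 below in chronic against acute (37.6%). The signs with all arrays were in part set by how the 42 were chosen, and so were those of the 5 lower genes below. Among the 23, C1ql3, Nrn1 and Cck are given as examples picked after their values were seen. C1ql3 differed by -1.45 in chronic against control, Nrn1 by -1.42 and Cck by -1.19 (adjusted p from 0.876 to 0.898 in limma). With the split as a covariate they were at -1.04, -1.02 and -0.74 (adjusted p = 0.793 in limma for each), and without the Slc17a7-high arrays at -0.92, -0.95 and -0.77. All 3 chronic arrays lay below the 6 others in C1ql3 and Cck, and in Nrn1 control 2 overlapped with them, but none of the 3 genes passed the threshold. Nxph3 was at 0.31, -0.31 and -0.62 in the 3 comparisons and at -0.13, 0.13 and 0.26 with the covariate. The 5 lower genes had medians of -0.54, -0.15 and 0.40, and of -0.08, -1.02 and -1.06 with the covariate, with 0 called in limma; at an unadjusted p under 0.05 there were 0 in each comparison with all arrays and 0, 1 and 2 with the covariate.

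**Figure D5:**
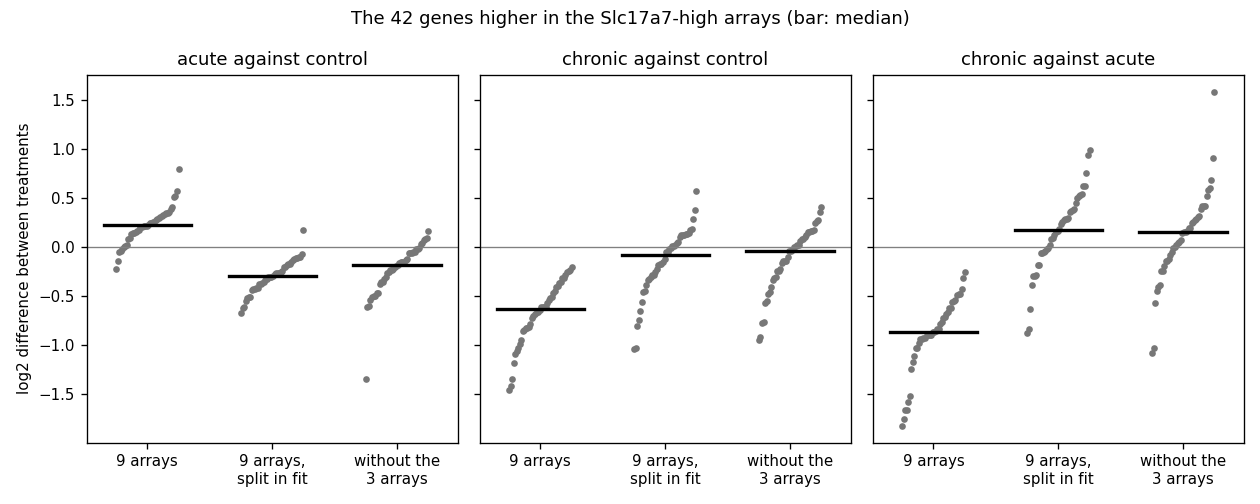
Log2 differences of the 42 higher genes in acute against control, chronic against control and chronic against acute MPTP, each with all 9 arrays, with the split of the arrays in the fit, and without the 3 Slc17a7-high arrays; points are genes and bars medians. The medians are 0.22, -0.63 and -0.87 with all arrays and -0.30, -0.08 and 0.18 with the split. The genes were chosen on the same arrays, so these values follow in part from the choice.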

How the data were processed

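Total RNA of mouse striatum was measured on 9 single-colour Affymetrix arrays from 200 ng of RNA, per the labels' protocols. The authors deposited log2 intensities of summarised probe sets, with array medians of 6.85 to 6.90. How they were corrected, normalized and summarised was not given in the sources used here; the number of arrays limits the precision. Groups and replicate numbers came from the sample titles.

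Gene names came from the platform annotation, in which 21780 of 28815 probe sets had 1 symbol, 1605 several and 5430 none. Identifiers of 21689 were found in the RefSeq table of GRCm38.p6, which changed 0 symbols. Those with 1 symbol whose 9-array mean reached the 25th percentile, log2 5.89, were used. The highest-mean probe set stood for each listed gene, and 809 genes had more than 1.

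The split was described by differences of mean log2 values, with SE from the spread in both sets. A gene was counted at 2-fold with no overlap. Treatment groups were compared with limma 3.58.1 in R 4.3.3 (1 mean per group, all 9 arrays, eBayes, two-sided, Benjamini-Hochberg, threshold 0.05), tested on simulated data. Figures were drawn with Python 3.11.15 and matplotlib 3.10.9.

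Same-numbered arrays of different groups tended to deviate together (9 pairs, r from 0.157 to 0.673 across probe sets, against -0.609 to 0.184 in 18 other pairs). The ranges overlap, with control 2 and chronic 2 at 0.157 and control 3 and chronic 2 at 0.184. The numbers were taken as pairing from the values and not from the labels. Only the replicate block uses this pairing, and the main fits leave it out.

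The members and the 27 lists were chosen with earlier results of these data known. Genes were named by rule: the 3 markers, up to 20 genes furthest apart without overlap in each direction, up to 4 such members of each list and up to 2 with the smallest difference, the neurexophilins, 8 set genes, and up to 6 higher genes with the widest range over the 3 arrays. Neurod2, Prdm8, Cckbr, Cnih3, Garnl3, Cplx3, Nr4a1, Arc, Tiparp, Calb2, Tac2, Pvalb, Gabre, Gabrq and Cd24a were named after their values were seen. Alternatives were filters, centring, quantile normalization, medians, other folds, within-treatment differences, arrays left out, the split as a covariate and the replicate block.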

Additional observations from a re-analysis of the deposited data

Results flagged for a closer look

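In 12 of 165 genes and list levels examined, 1 of the other 6 arrays lay apart from the other 5. The gap was more than 0.625 of the range, where chance gives about 5% of such groups. The rule is relative to the range, so a gap can be small in log2 units. On control 3 these were Rbp4 at 7.976, the striatal signalling gene Rgs9 at 10.69, Gbx2, a homeobox gene of the thalamus, at 7.739, and Ppp1r1b at 11.44. On acute 3 they were the water channel gene Aqp1 at 6.892 and Pde4c at 6.263. In Pde4c the other 5 arrays were tied at 6.274, so its flag rests on tied values and a very small gap. On chronic 1 they were the kappa opioid receptor gene Oprk1 at 8.156 and the mean level of adrenergic, muscarinic and adenosine receptors at 8.405. On chronic 2 they were Lhx2 at 10.13 and the mean level of oligodendrocyte genes at 9.721. Gpr149, an orphan receptor gene, was at 8.299 on control 2, and Flt1, a receptor of vascular endothelial growth factor, at 9.366 on chronic 3.

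In 11 of the 165 genes and lists control 1 lay below both other controls while acute 1 and 2 both lay above acute 3. The opposite arrangement, control 1 above and both acute arrays below, occurred in 0. The 75 named genes without overlap could show neither arrangement, because both treatments go the same way in them. The share over all probe sets was not counted, so 11 against 0 is only a description of the chosen items. Genes whose mean differences had opposite signs but whose arrays overlapped within a treatment are not among the 11. The difference between the treatments was not tested. The values within the controls and within the acute group were -0.1034 and 0.2047 for Tle4, -0.4015 and 0.0731 for Oprk1, -0.2005 and 0.0373 for the claustrum marker Lxn, and -0.1519 and 0.2499 for the serotonin receptor Htr3a. They were -0.2069 and 0.1412 for Cx3cr1 and -0.3716 and 0.3221 for Trem2, another microglial receptor. Flt1 was at -0.1437 and 0.0944, the kainate receptor subunit Grik5 at -0.1494 and 0.2313, and the adrenergic receptor Adra2c at -0.484 and 0.2168. The mean level of microglial genes was at -0.3786 and 0.0574 and that of voltage-gated potassium channels at -0.04561 and 0.0919.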

How the results depend on the processing

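The differences of the 75 named genes without overlap had 1200 values under the alternatives. Of these 1192 moved by less than the spread between arrays, 8 moved by more and 0 reversed. Genes without overlap cannot reverse when arrays are left out, when medians are used or within the treatments. In those settings the 0 was fixed by the choice of genes, and only centring, quantile normalization and the mean over probe sets could reverse a sign. The 47 genes at 2-fold (42 higher, 5 lower) were 93 and 53 lower without the 3 chronic arrays, and 102 and 57 lower as the mean of the differences within control and within acute. There was 1 lower gene, Agt, without control 3 and acute 3, and 156 genes (105 higher, 51 lower) passed at 1.5-fold. With each array left out in turn the counts were 41 to 68, 32 to 57 and 4 to 24. A setting without a filter and with quantile normalization, chosen after seeing the data, gave 54, 48 and 6. Fewer arrays and a lower fold let more genes pass by construction; the cause of other shifts was not tested.

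Limma called 1 probe set in chronic against acute MPTP with the split as a covariate, 0 without the 3 Slc17a7-high arrays, 1 without a filter and 1 with only the 2 groups compared; that last setting called 1 in acute against control. Leaving out each array gave 0 to 1, 0 to 2 and 1 to 5 in acute against control, chronic against control and chronic against acute. With the replicate number as a block the counts were 0, 0 and 2; the pairing kept the call of Nr4a1, lost that of Arc and added Tiparp, and 687, 2128 and 2278 probe sets had an unadjusted p under 0.05, against 139, 900 and 837. It changed no call among the 47 genes.

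The split is Slc17a7 itself divided at 11, so its turns under the covariate are in part fixed by construction. With the split as a covariate, reversed differences of Slc17a7, Tbr1 and Neurod6 were -0.26, -0.55 and -0.62 in acute against control, 0.29, 0.17 and 0.75 in chronic against acute, and for Slc17a7 and Neurod6 0.0267 and 0.14 in chronic against control. Without the 3 Slc17a7-high arrays they were -0.27, -0.60 and -0.51, 0.29, 0.20 and 0.68, and 0.026 and 0.17. With each array left out in turn, Slc17a7, Tbr1 and Neurod6 ran from 0.07 to 1.85, -0.21 to 1.38 and -0.32 to 1.34 in acute against control, from -1.75 to 0.026, -1.82 to -0.40 and -1.48 to 0.17 in chronic against control, and from -2.88 to -1.16, -2.72 to -1.13 and -2.09 to -0.65 in chronic against acute. With 3 arrays in 1 set and probe sets near the lower quartile, small differences at low signal have little precision.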

Other observations

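Gabrq and Gabre, picked after their values were seen, had wide ranges across the arrays. Gabrq, a GABA-A receptor subunit of hypothalamus and septum, was at 8.01, 8.86 and 8.18 on control 2, control 3 and acute 3 and at 6.2, 8.10 and 6.63 on chronic 1 to 3, and at 6.27, 6.02 and 7.11 on control 1, acute 1 and acute 2. Gabre, another such subunit, was at 7.03, 7.97, 6.94, 6.02, 7.37 and 6.32 on the other 6 arrays and at 5.62, 5.58 and 6.28 on the Slc17a7-high arrays. Chronic 1 overlapped with the Slc17a7-high arrays in both genes and chronic 3 in Gabrq. Pvalb, the calcium buffer of fast-spiking interneurons, was at 6.88 on chronic 2 and at 9.38 to 9.72 on the remaining 5 of the other arrays, and at 8.17, 8.27 and 7.89 on the Slc17a7-high arrays.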
